A study of Rattus norvegicus with 12 samples.

Results

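The comparison described here sets NRK-52E cells that had received TGF-beta1 and then 3D-EVs (3 libraries, called 3D-EV cells) against untreated NRK-52E cells (3 libraries, called control cells), 6 of the 12 libraries of the series, and asks across all genes how far the cells still stood from the untreated state after the vesicles. NRK-52E is a line of tubular epithelial cells from rat kidney, labelled wild type in every group. 3D-EV cells and 2D-EV cells were given TGF-beta1 for 24 h, labelled 10 µg/ml, and then extracellular vesicles (EVs) at 500000000 particles/ml for 48 h. TGF-beta1 cells were given TGF-beta1 alone, labelled with the same 10 µg/ml and 24 h, and for control cells no agent is named in the labels. Doses of this cytokine are usually stated in ng/ml, so the labelled unit is in doubt. The sources used here do not state which cells made the vesicles, whether TGF-beta1 stayed in the medium with them, or at what time TGF-beta1 and control cells were collected. In 3D-EV cells against control cells, the cytokine, the vesicles and the time in culture therefore cannot be told apart. Against TGF-beta1 cells, the vesicles and the 48 h that came with them likewise cannot be told apart. The 3 TGF-beta1 libraries and the 3 2D-EV libraries are used to show what differed once vesicles, or the other vesicles, were set beside them. These libraries also entered the same fit as the other 6, so the spread behind every p-value was estimated from all 12 libraries. Nothing in the labels says that the 3 libraries of a group came from separate cultures. A p-value therefore sets the difference between groups only against the spread among libraries of the same group, and that spread may be technical.

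TGF-beta1 is secreted in a latent complex that is held in the matrix by latent binding proteins. Once released, it binds a receptor pair (TGFBR2 and TGFBR1) that phosphorylates SMAD3 and SMAD2, which enter the nucleus with SMAD4 and raise genes for matrix and for connective tissue growth factor, as well as their own brakes such as SMAD7. In kidney tubule cells long exposure to the cytokine is known for lost cell junctions, a contractile cytoskeleton and matrix secretion, which together are used as a cell model of renal fibrosis.

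Libraries held 34185568 to 39754319 counts in 3D-EV cells and 33273281 to 34830269 counts in control cells. Levels are given as CPM, counts scaled to library totals corrected by TMM factors, in which 1 count stood for 0.0255 to 0.0305 CPM and a count of 0 allows up to 0.0764 to 0.0916 CPM (3 counts, counting error only). CPM are not divided by gene length, so levels are compared between groups and not between genes. Mitochondrial transcripts made up 5.51% to 5.58% of counts in 3D-EV libraries and 5.46% to 5.58% in control libraries. Of 14 tubular epithelial markers, 10 were tested, of which 2 rose and 1 fell in 3D-EV cells against control cells, and their summed level was 1480 to 1550 CPM in 3D-EV libraries and 1210 to 1230 CPM in control libraries. Most of these sums came from the 2 that rose. Krt8 averaged 1160 CPM in 3D-EV and 1010 CPM in control cells, and Ggt1 averaged 314 and 165 CPM. Pax2 and Epcam, 2 defining genes of that list, were at 0 in all 12 libraries. Of 13 immune markers 4 were tested and 1 rose, Cd14 (245, 243 and 245 CPM in 3D-EV cells, against 187, 177 and 192 CPM in control cells, adjusted p = 1.12e-06), with sums of 248 to 250 CPM in 3D-EV libraries and 182 to 197 CPM in control libraries. Ptprc, Itgam, C1qa, C1qb and Tyrobp of that list were at 0 in all 12. Of 6 fibroblast and pericyte markers tested, 1 rose and 2 fell, with sums of 737 to 776 CPM in 3D-EV libraries and 761 to 806 CPM in control libraries. Of 11 mesenchymal stromal cell markers tested, 3 rose and 1 fell, with sums of 223 to 245 CPM in 3D-EV libraries and 224 to 237 CPM in control libraries. Of 5 endothelial markers tested 1 rose, and sums were 16.0 to 17.7 CPM in 3D-EV libraries and 13.3 to 14.2 CPM in control libraries. In such bulk samples fewer cells of a type and less RNA per cell cannot be told apart.

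After 3D-EVs the cells still differed from untreated cells in many genes. Of 14184 genes tested, 3262 (23.0%) differed from control cells at an adjusted p below 0.05, 1731 of them higher (12.2%) and 1531 lower (10.8%) in 3D-EV cells. Most of these differences were small: the median size among the called genes was 0.262 on the log2 scale, and 200 genes (1.41%) differed by at least 1 on that scale, 117 higher (0.825%) and 83 lower (0.585%). The 3 libraries of one group lay wholly above or below those of the other in 38.0% of genes, against which any statement below that groups did not overlap is to be read. List counts are likewise to be read against the 12.2% of all genes that were higher and the 10.8% that were lower. TGF-beta1 cells set against the same 3 control libraries gave 3124 called genes (22.0%), 1676 higher (11.8%) and 1448 lower (10.2%), of which 215 (1.52%) differed by at least 1. Both comparisons share their control libraries, so their counts are given side by side and their overlap is not used as a result. Tests are edgeR's quasi-likelihood F-test with Benjamini-Hochberg adjustment over all genes tested, here and below unless another tool is named, and n = 3 libraries in each group. Leaving out a single library gave 2408 to 2679 called genes.

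**Figure D1:**
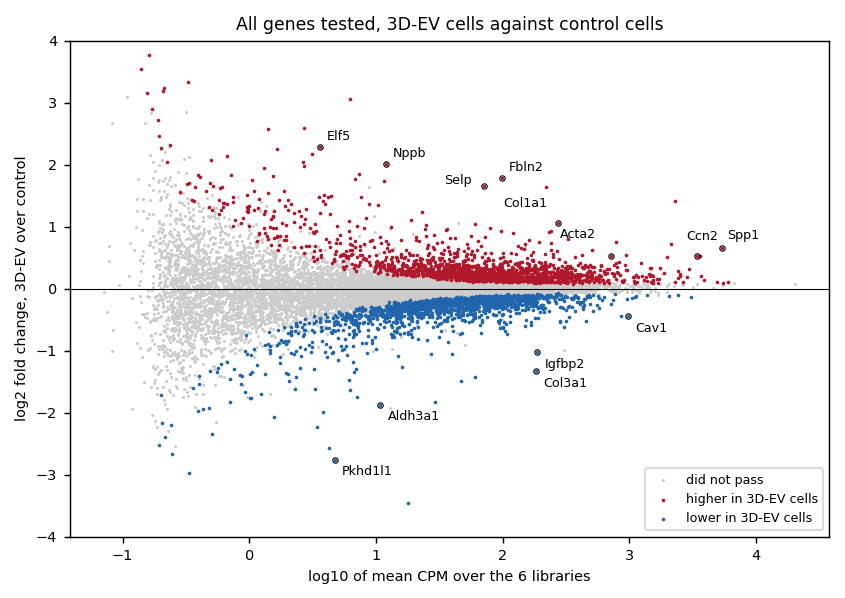
Each point is a gene, with the mean level over the 3D-EV and control libraries on the x axis (log10 of CPM) and the log2 fold change of 3D-EV over control cells on the y axis; red and blue genes had an adjusted p below 0.05. The 1731 higher and 1531 lower genes lie mostly within 1 unit of 0, and 7 genes of low level lie beyond the limits of 4 and are not drawn.

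Among the signalling genes, Tgfb1 stood higher, while the receptor genes Tgfbr1, Tgfbr2 and Tgfbr3 were lower or did not pass. Of other receptor genes, Acvr1 rose by 0.31 on the log2 scale (adjusted p = 0.00034) and Bmpr1a fell by 0.295 (adjusted p = 0.00189). Tgfb1, which encodes the cytokine itself, had 182, 190 and 194 CPM in 3D-EV cells, against 119, 105 and 118 CPM in control cells. All 3 libraries of 3D-EV cells lay above all 3 of control cells, a log2 fold change of 0.73 (SE 0.047, adjusted p = 8.07e-08). The type I receptor gene Tgfbr1 did not pass the test (48.5, 48.9 and 48.5 CPM in 3D-EV cells, against 50.4, 52.4 and 53.1 CPM in control cells, adjusted p = 0.154). Its partner Tgfbr2 fell by 0.10 on the log2 scale (adjusted p = 0.0439), to 283, 271 and 275 CPM in 3D-EV cells against 297, 296 and 297 CPM in control cells. The groups did not overlap, yet the Tgfbr2 call was lost when any one of control library 1, 2 or 3 or 3D-EV library 2 or 3 was left out (adjusted p 0.091 to 0.152), with the replicate block (adjusted p = 0.0686) and without the filter on low counts (adjusted p = 0.0504). The co-receptor gene Tgfbr3 fell to 13.3 CPM in 3D-EV cells against 20.2 CPM in control cells (log2 fold change -0.60, adjusted p = 0.00034). The signal transducer Smad3 had 28.8, 26.6 and 29.0 CPM in 3D-EV cells and 30.6, 30.8 and 31.6 CPM in control cells (adjusted p = 0.103). Smad7, the inhibitory Smad that the pathway induces against itself, had 118, 114 and 116 CPM in 3D-EV cells and 104, 105 and 111 CPM in control cells. It missed the threshold (log2 fold change 0.12, adjusted p = 0.0653), and passed it without control library 3 (adjusted p = 0.0495), with DESeq2 (adjusted p = 0.0493) and with only the 6 libraries (adjusted p = 0.0343).

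Of the 44 tested genes in the list of TGF-beta ligands, receptors, Smads and feedback, 12 rose, 12 fell and 20 did not pass, with a median log2 fold change of -0.0048 that is close to the -0.0047 of all genes tested. TGF-beta1 cells against control cells gave 15, 13 and 16. The members that rose included Tgfb2, a further ligand (155 CPM in 3D-EV cells and 117 CPM in control cells, log2 fold change 0.40, adjusted p = 1.69e-06), and Ltbp2, of the family that anchors latent complexes in the matrix (0.58, adjusted p = 1.08e-07). Pmepa1, a membrane protein that restrains receptor signalling and is itself induced by it, rose by 0.47 (adjusted p = 1.18e-06), and Fst, whose product traps activins, rose by 0.50 (adjusted p = 4.3e-07). The third ligand, Tgfb3, fell to 453 CPM in 3D-EV cells against 584 CPM in control cells (-0.37, adjusted p = 9.71e-07). Ltbp4, another latent binding protein, fell by 0.52 on the log2 scale (adjusted p = 0.000492). On the side of the bone morphogenetic proteins, Bmp4 (-0.34, adjusted p = 2.12e-05) and the inhibitors of differentiation Id1 (-0.28, adjusted p = 4.47e-05) and Id3 (-0.31, adjusted p = 0.000651), known targets of that branch, were also lower in 3D-EV cells.

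The effectors of the pathway given here were higher in 3D-EV cells. Ccn2 encodes connective tissue growth factor, a secreted matricellular protein, and had 4070, 4140 and 4010 CPM in 3D-EV cells, against 2830, 2770 and 2870 CPM in control cells. The 2 groups were 1.44-fold apart with no overlap (log2 fold change 0.53, SE 0.0254, adjusted p = 3.53e-09). Thbs1, for thrombospondin, a protein that can release latent TGF-beta, reached 2340, 2310 and 2280 CPM in 3D-EV cells and 1640, 1510 and 1740 CPM in control cells (log2 fold change 0.50, adjusted p = 1.36e-06). Edn1, for the constrictor peptide endothelin, rose by 0.66 (adjusted p = 2.47e-06) and Ankrd1, a nuclear target of stretch signals, by 0.85 (adjusted p = 2.1e-05).

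Ccn2 is also the gene that separated 3D-EV from 2D-EV cells, as described further on, so its promoter is shown with that of Acta2, the smooth muscle actin gene that ranked next there. Each window runs from 250 bases before to 50 bases after the start of the gene (RefSeq, build GRCr8, minus strand, 5′ to 3′ along the gene). The capitals mark CATTCC, the core bound by TEAD factors, and CAGAC, a core bound by SMAD proteins, each searched on both strands (CATTCC reads GGAATG on the other strand and CAGAC reads GTCTG). The Ccn2 window is chr1:22624565-22624864 and the Acta2 window is chr1:241172454-241172753.
Ccn2: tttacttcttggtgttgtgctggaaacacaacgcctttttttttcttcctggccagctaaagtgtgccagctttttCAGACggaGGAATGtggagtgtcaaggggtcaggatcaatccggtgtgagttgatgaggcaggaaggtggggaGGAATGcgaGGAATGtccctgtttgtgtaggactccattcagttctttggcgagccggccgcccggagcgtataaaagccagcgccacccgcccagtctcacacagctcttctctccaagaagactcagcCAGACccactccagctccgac
Acta2: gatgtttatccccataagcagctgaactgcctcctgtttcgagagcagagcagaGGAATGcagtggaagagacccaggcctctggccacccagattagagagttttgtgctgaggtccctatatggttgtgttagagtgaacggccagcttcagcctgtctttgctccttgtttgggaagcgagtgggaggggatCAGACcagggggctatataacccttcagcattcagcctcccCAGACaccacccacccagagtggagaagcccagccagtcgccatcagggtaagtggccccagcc
The Ccn2 window holds 3 matches to CATTCC, all as GGAATG, which begin 166, 101 and 92 bases before the start of the gene, and 2 matches to CAGAC. The Acta2 window holds 1 match to CATTCC, which begins 196 bases before the start, and 2 matches to CAGAC. Of all 27457 promoters of this length in the table, 3811 (13.9%) held CATTCC and 13720 held CAGAC. Of the 9715 promoters of tested genes, 1065 held CATTCC and 4684 (48.2%) held CAGAC. By list, CATTCC was in 8 of 26 promoters of mesenchymal and contractile genes, 6 of 29 of extracellular matrix, 5 of 36 of the TGF-beta list and 0 of 20 of cholesterol genes. CAGAC was in 14 of 26, 16 of 29, 12 of 36 and 11 of 20 of the same lists. These matches describe the letters in the windows and say nothing of binding in these cells. Promoters of the other genes named here are not shown.

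**Figure D2:**
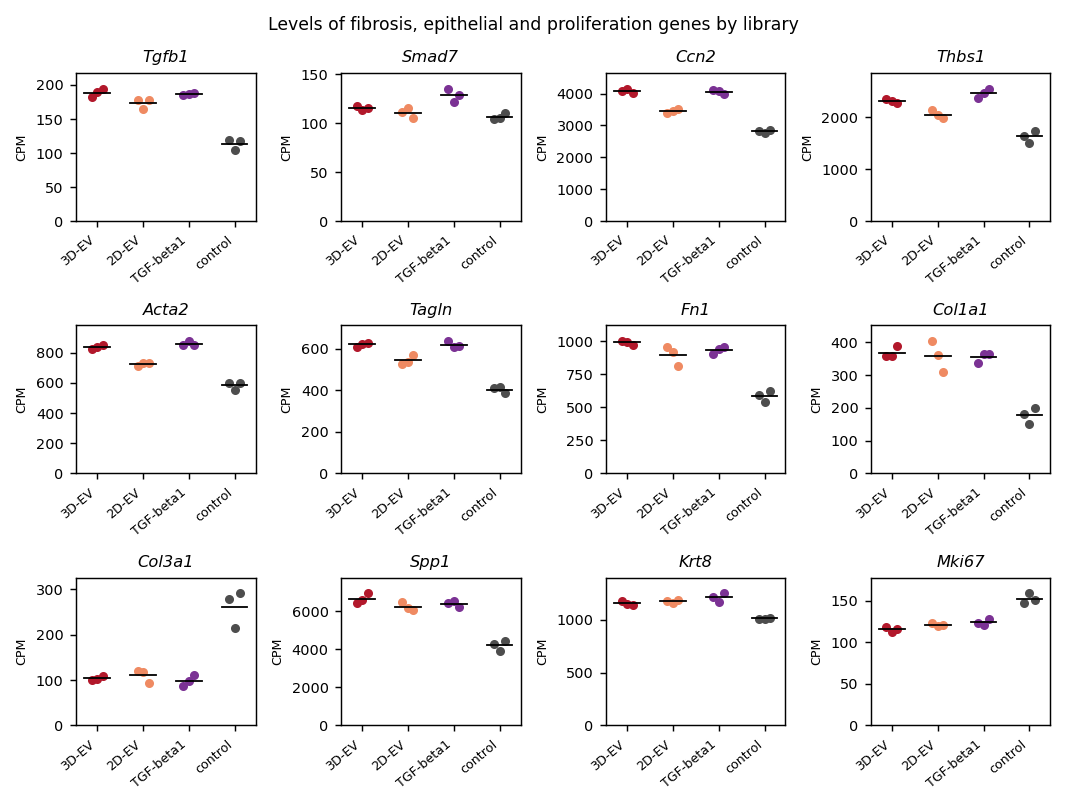
Each panel shows 1 gene, with CPM on the y axis starting at 0; points are libraries (3 in each group) and the black lines are group means. In 3D-EV cells Ccn2, Thbs1, Acta2, Tagln, Fn1, Col1a1, Tgfb1 and Spp1 lie above and Col3a1 and Mki67 lie below all 3 control libraries; Smad7 lies nearer to control cells than to TGF-beta1 cells.

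Matrix genes moved in both directions. The extracellular matrix list had 40 tested genes, of which 16 were higher, 6 were lower and 18 missed the threshold, against 12.2% higher and 10.8% lower among all genes, and the median log2 fold change was 0.167. TGF-beta1 cells against control cells gave 18, 6 and 16 with a median of 0.165. Col1a1, for a chain of type I collagen, the main fibre of scar, had 359, 358 and 389 CPM in 3D-EV cells, against 181, 151 and 200 CPM in control cells. The lowest 3D-EV library was thus well above the highest control library (2.08-fold, log2 fold change 1.06, SE 0.0932, adjusted p = 1.42e-06). Col1a2, for the other chain of type I collagen, averaged 1.86 CPM in 3D-EV cells and 1.32 CPM in control cells and did not pass (adjusted p = 0.339). Fn1, for fibronectin, on which other matrix proteins assemble, had 1000, 998 and 975 CPM in 3D-EV cells, against 590, 543 and 623 CPM in control cells (log2 fold change 0.76, adjusted p = 2.22e-07). Fbln2, for fibulin-2, a protein of basement membranes and elastic fibres, had 157, 152 and 148 CPM in 3D-EV cells, against 47.8, 41.1 and 43.8 CPM in control cells. This 3.45-fold difference (log2 1.79, adjusted p = 5.17e-12) was the largest rise among named genes of at least 50 CPM. The laminin chains Lama3 (0.92, adjusted p = 1.06e-07) and Lamb3 (0.74, adjusted p = 3.96e-09), parts of the laminin that anchors epithelia, and Postn, for periostin (0.66, adjusted p = 6.75e-06), rose as well.

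Col3a1 went the other way. This gene for type III collagen, which is often laid down with type I collagen, had 101, 102 and 110 CPM in 3D-EV cells, against 279, 216 and 291 CPM in control cells. The 3D-EV libraries lay at 0.398 times the control level with no overlap (log2 fold change -1.33, SE 0.111, adjusted p = 9.41e-07). Eln, for elastin, fell to 371 CPM in 3D-EV cells against 534 CPM in control cells (-0.53, adjusted p = 0.000633), and the laminin chain Lamb2 to 517 CPM in 3D-EV cells against 639 CPM in control cells (adjusted p = 0.000116).

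Of 28 tested enzymes of matrix crosslinking and turnover, 11 rose, 4 fell and 13 did not pass (12, 4 and 12 in TGF-beta1 cells), and without control library 3 the falls were 2. The crosslinking oxidase Loxl2 had 300, 294 and 308 CPM in 3D-EV cells, against 205, 198 and 207 CPM in control cells (log2 fold change 0.56, adjusted p = 5.03e-08), and Lox rose by 0.29 (adjusted p = 0.000397). Timp1, an inhibitor of metalloproteinases, rose by 0.36 (adjusted p = 2e-05) and Plaur, the receptor of urokinase, by 0.51 (adjusted p = 4.1e-06). The gelatinase gene Mmp2 fell to 25.7, 25.3 and 28.2 CPM in 3D-EV cells against 36.9, 29.3 and 37.8 CPM in control cells (adjusted p = 0.00968), a call that was lost without control library 3 (adjusted p = 0.0505).

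Among contractile and mesenchymal genes every call was a rise. Of 31 tested members, 17 rose, 0 fell and 14 did not pass, with a median log2 fold change of 0.183 (19, 0 and 12 with a median of 0.178 in TGF-beta1 cells). Acta2, for alpha smooth muscle actin, the usual mark of myofibroblasts, had 826, 837 and 853 CPM in 3D-EV cells, against 601, 555 and 599 CPM in control cells. All 3D-EV libraries lay above all control libraries (log2 fold change 0.52, SE 0.0325, adjusted p = 5.7e-08). Tagln, for the actin-binding protein transgelin, had 608, 624 and 627 CPM in 3D-EV cells and 410, 414 and 384 CPM in control cells (0.62, adjusted p = 3.44e-08). The intermediate filament gene Vim, already high in control cells, rose by 0.23 (2770, 2780 and 2680 CPM in 3D-EV cells, against 2320, 2350 and 2320 CPM in control cells, adjusted p = 6.7e-05). Snai1, a repressor of epithelial genes, had 26.1, 25.7 and 27.1 CPM in 3D-EV cells, against 20.9, 18.6 and 21.1 CPM in control cells (0.38, adjusted p = 0.000397). Snai1 averaged 30.5 CPM in TGF-beta1 cells. Further transcription factors of the list did not pass: Snai2 (-0.045, adjusted p = 0.845), Twist1 (0.09, adjusted p = 0.633), Zeb1 (-0.0018, adjusted p = 0.984) and Zeb2 (0.43, adjusted p = 0.174).

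Calls among junction and keratin genes split evenly, and the classic epithelial cadherin was almost absent from every group. Of 17 tested members 5 rose, 5 fell and 7 did not pass (5, 4 and 8 in TGF-beta1 cells). Cdh1, for E-cadherin, had 0.153, 0.256 and 0.0595 CPM in 3D-EV cells, against 0.398, 0.642 and 0.84 CPM in control cells, which over all 12 libraries is 2 to 30 counts. Its call (log2 fold change -1.97, adjusted p = 0.0268) was lost without control library 2 or 3 or 3D-EV library 1 or 3 (adjusted p 0.0658 to 0.113). Members that fell included genes of the tight junction plaque: Tjp1, for ZO-1, to 451, 441 and 442 CPM in 3D-EV cells against 516, 535 and 534 CPM in control cells (-0.25, adjusted p = 4.93e-05), Cgn, for cingulin, by 0.52 (adjusted p = 2.26e-05) and Tjp3 by 0.93 (adjusted p = 0.000375). Krt8, a keratin of simple epithelia, rose instead, with 1180, 1150 and 1140 CPM in 3D-EV cells and 1010, 1010 and 1020 CPM in control cells (0.19, adjusted p = 0.000199), as did Jup, for plakoglobin of the desmosome (0.18, adjusted p = 0.00167). The list counts rested on single libraries: 3 rose without control library 1, control library 3 or 3D-EV library 1, and 3 fell without control library 2 or 3 or 3D-EV library 1 or 3.

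Transporters and enzymes of the mature tubule were sparse. Of 35 listed genes 18 were tested, of which 2 rose, 3 fell and 13 did not pass (2, 4 and 12 in TGF-beta1 cells), and without control library 3 or 3D-EV library 2 only 1 fell. The called share was 27.8%, beside 23.0% of all genes tested. The brush border enzyme Ggt1 had 320, 318 and 303 CPM in 3D-EV cells, against 163, 159 and 173 CPM in control cells, a 1.90-fold rise with no overlap (log2 fold change 0.93, adjusted p = 9.92e-10). Dab2, an adaptor of apical endocytosis, fell to 141, 131 and 130 CPM in 3D-EV cells against 198, 205 and 202 CPM in control cells (-0.59, adjusted p = 2.2e-07).

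Among genes of tubular injury more rose than fell. Of 21 tested members, 11 rose, 2 fell and 8 did not pass, with a median log2 fold change of 0.245, and TGF-beta1 cells gave 10, 4 and 7 with a median of 0.124. Without control library 1 or 3, or 3D-EV library 1 or 3, the falls were 1. Spp1, for osteopontin, a secreted protein that damaged tubules release, had 6410, 6570 and 6920 CPM in 3D-EV cells, against 4290, 3930 and 4410 CPM in control cells (0.66, SE 0.0413, adjusted p = 5.84e-08). The hyaluronan receptor Cd44 rose by 0.44 (adjusted p = 1.26e-05) and the growth factor Hbegf by 0.37 (adjusted p = 6.64e-05). Havcr1, for the injury marker KIM-1, had 0.102, 0 and 0 CPM in 3D-EV cells and 0.171, 0 and 0.224 CPM in control cells, and was too low to be tested.

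Among inflammatory genes more rose than fell, and some varied over the 3D-EV libraries. Of 24 tested members of the inflammation and NF-kB list 9 rose, 3 fell and 12 did not pass, with a median log2 fold change of 0.157, and TGF-beta1 cells gave 5, 5 and 14 with a median of 0.0117. Without control library 3 or 3D-EV library 1 or 2 only 1 fell. C3, the central complement protein, had 5.50, 9.34 and 3.72 CPM in 3D-EV cells, 4.02, 4.19 and 3.72 CPM in 2D-EV cells, 2.44, 2.30 and 2.86 CPM in TGF-beta1 cells and 1.72 to 2.60 CPM in control cells. All 3D-EV libraries were above those of TGF-beta1 and control cells but overlapped with 2D-EV cells, and the second was the highest (log2 fold change 1.48 over control cells, SE 0.264, adjusted p = 0.000824). Ccl2, the monocyte chemokine, had 10.8, 16.3 and 7.59 CPM in 3D-EV cells, against 2.79, 3.38 and 3.5 CPM in control cells (1.84, SE 0.213, adjusted p = 2.12e-05), and averaged 7.57 CPM in TGF-beta1 cells. Cxcl1, a neutrophil chemokine, had 47.0, 63.8 and 34.1 CPM in 3D-EV cells, against 33.5, 36.7 and 31.4 CPM in control cells. These groups overlap, the second 3D-EV library is again the highest, and the call (log2 fold change 0.51, adjusted p = 0.0247) was lost without it (0.26, adjusted p = 0.139), without control library 1 or 3 (adjusted p 0.0689 and 0.0881) and with only the 6 libraries (adjusted p = 0.0565). Csf1, the macrophage growth factor, had 86.0, 87.0 and 88.6 CPM in 3D-EV cells, against 100, 102 and 94.5 CPM in control cells, and so remained lower than in untreated cells (-0.18, adjusted p = 0.00646).

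**Figure D3:**
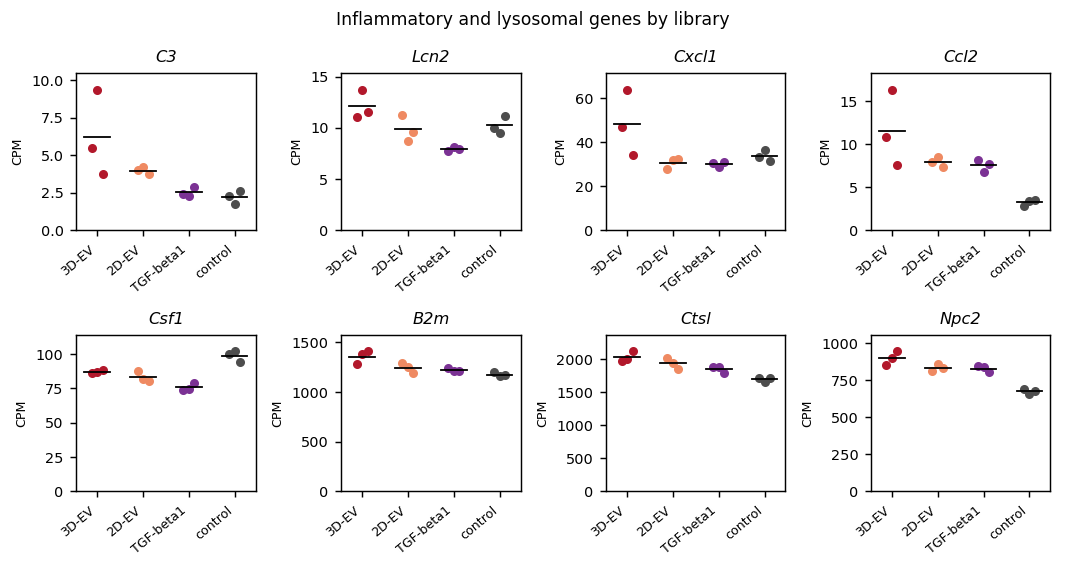
Each panel shows 1 gene chosen after its values were seen, with CPM on the y axis starting at 0; points are libraries (3 in each group) and black lines are group means. In C3, Cxcl1 and Ccl2 the second 3D-EV library is the highest of all 12, and in Lcn2 and Csf1 TGF-beta1 cells lie below both 3D-EV and control cells.

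Lcn2, for the iron-binding injury protein NGAL, did not pass against control cells. It had 11.1, 13.7 and 11.6 CPM in 3D-EV cells and 9.98, 9.54 and 11.2 CPM in control cells (log2 fold change 0.245, adjusted p = 0.125), against 7.76, 8.18 and 7.97 CPM in TGF-beta1 cells. All 3 libraries of 3D-EV cells lay above all 3 of TGF-beta1 cells, as groups wholly apart did in 13.6% of genes in either direction (log2 difference 0.61, 95% interval 0.37 to 0.84), and the adjusted p of that difference was 0.405. The interferon and MHC class I list stayed near the background, with 3 of 31 tested members higher, 3 lower and 25 not passed (1, 5 and 25 in TGF-beta1 cells), and without control library 3 or 3D-EV library 2 only 1 rose. B2m, the light chain of MHC class I, had 1280, 1380 and 1410 CPM in 3D-EV cells and 1200, 1160 and 1170 CPM in control cells (0.21, adjusted p = 0.000702).

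Among proliferation genes every call was a fall. None of the 39 cell cycle genes tested was higher (0), 25 were lower and 14 missed the threshold, with a median log2 fold change of -0.24 (0, 22 and 17 with a median of -0.203 in TGF-beta1 cells). Mki67, for the proliferation antigen Ki-67, had 119, 113 and 116 CPM in 3D-EV cells, against 147, 159 and 151 CPM in control cells, with no overlap (-0.39, SE 0.0369, adjusted p = 2.58e-06). Top2a, the topoisomerase that untangles replicated DNA, fell by 0.37 (adjusted p = 2.17e-06), Cdc20, an activator of the anaphase complex, by 0.44 (adjusted p = 2.03e-05) and Cenpf, of the kinetochore, by 0.47 (adjusted p = 2.68e-05). Foxm1, the factor that drives mitotic genes, varied within groups, with 0.0764, 13.8 and 13.3 CPM in 3D-EV cells, and did not pass (adjusted p = 0.577). Genes of arrest and the p53 response moved both ways: of 26 tested, 2 rose, 7 fell and 17 did not pass (4, 7 and 15 in TGF-beta1 cells). The rises were Pmaip1 (0.35, adjusted p = 4.46e-06) and Gadd45a (0.26, adjusted p = 0.00446). The list also holds Ccnd1, Ccnd2, Ccnd3 and Lmnb1, so its counts give no direction for arrest, and Lmnb1 was among the falls (-0.38, adjusted p = 2.97e-05). Cdkn1a, for the inhibitor p21, averaged 292 CPM in 3D-EV cells and 292 CPM in control cells (adjusted p = 0.992), while Cdkn2c, for the inhibitor p18, fell to 36.4, 38.2 and 39.4 CPM in 3D-EV cells against 54.9, 48.9 and 49.7 CPM in control cells (-0.43, adjusted p = 8.68e-05).

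Cholesterol genes had the largest share of calls among the response lists (75.0%). Of 28 tested genes of cholesterol synthesis and uptake 21 rose, 0 fell and 7 did not pass, with a median log2 fold change of 0.277 (24, 0 and 4 with a median of 0.289 in TGF-beta1 cells). Nsdhl, an enzyme of the late steps of synthesis, had 156, 157 and 163 CPM in 3D-EV cells, against 119, 119 and 115 CPM in control cells (0.43, SE 0.0376, adjusted p = 1.34e-06), with no overlap. The synthesis enzymes Mvd (0.54, adjusted p = 4.3e-06) and Idi1 (0.44, adjusted p = 4.71e-05) and the sterol sensor Insig1 (0.38, adjusted p = 4.23e-06) rose. Srebf2, which encodes the transcription factor of this pathway, averaged 253 CPM in 3D-EV cells and 252 CPM in control cells and did not pass (adjusted p = 0.949).

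Other metabolic lists had smaller shares of calls. In fatty acid synthesis 8 of 19 tested genes rose and 2 fell (9 and 1 in TGF-beta1 cells), among them the synthase Fasn (0.32, adjusted p = 2.32e-06) and the acetyl-CoA synthetase Acss2 (0.57, adjusted p = 5.38e-06), and without control library 1 or 3 or 3D-EV library 2 only 1 fell. In fatty acid oxidation 2 of 29 rose and 8 fell (2 and 10 in TGF-beta1 cells), with Decr1, an enzyme for unsaturated fats, at 69.1, 67.7 and 69.1 CPM in 3D-EV cells against 89.9, 86.8 and 87.0 CPM in control cells (-0.36, adjusted p = 2.06e-05), and without control library 3 or 3D-EV library 2 only 1 rose. Nuclear genes of oxidative phosphorylation were the response list with the smallest share of calls (7.14%), with 1 rise and 1 fall among 28 (2 and 1 in TGF-beta1 cells), and the fall was lost without control library 1 or 3 or 3D-EV library 1 or 2. Of 28 glycolysis and hypoxia genes 8 rose and 4 fell (9 and 3 in TGF-beta1 cells), and 2 fell without control library 1 or 3 or 3D-EV library 2 or 3. Eno2, an enolase and the rise with the smallest p, had 198, 197 and 206 CPM in 3D-EV cells and 148, 143 and 143 CPM in control cells (0.47, adjusted p = 1.45e-05). Among 28 genes of the oxidative stress response driven by NRF2, 10 rose and 9 fell (6 and 9 in TGF-beta1 cells), and 6 rose without control library 1 or 3D-EV library 2. The ferritin chain Ftl1 rose to 4150, 4310 and 4320 CPM in 3D-EV cells against 2980, 3070 and 2870 CPM in control cells (0.52, adjusted p = 9.45e-08), whereas Gclc, which makes glutathione, fell by 0.30 (adjusted p = 0.000647).

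Among lysosomal and secretory pathway genes more rose than fell. Of 31 tested genes of lysosome and endocytosis 18 rose, 2 fell and 11 did not pass (median log2 fold change 0.15), and TGF-beta1 cells gave 12, 2 and 17 (median 0.103). Neu1, a lysosomal sialidase, had 301, 306 and 302 CPM in 3D-EV cells, against 158, 152 and 172 CPM in control cells, a 1.88-fold rise (0.91, adjusted p = 2.68e-09). Npc2, which carries cholesterol out of lysosomes, had 857, 898 and 946 CPM in 3D-EV cells, against 692, 656 and 677 CPM in control cells (0.42, adjusted p = 1.69e-06). The cathepsins Ctsb (0.33, adjusted p = 2.54e-06) and Ctsl (0.26, adjusted p = 0.000103) rose too. The members that fell were the caveolae genes Cav1 (854, 823 and 832 CPM in 3D-EV cells, against 1120, 1120 and 1160 CPM in control cells, -0.44, adjusted p = 1.48e-07) and Cav2. Of 32 genes of the unfolded protein and ATF4 response 16 rose and 1 fell (11 and 1 in TGF-beta1 cells), including the chaperone Hspa5 with 2750, 2750 and 2500 CPM in 3D-EV cells against 2180, 2270 and 2080 CPM in control cells (0.29, adjusted p = 0.000432). That count depended on single libraries, with 9 rises without control library 3 and 10 without 3D-EV library 2. Of 25 genes of exosome formation and tetraspanins 6 rose and 3 fell (5 and 5 in TGF-beta1 cells), with Cd63 showing 670, 713 and 699 CPM in 3D-EV cells against 602, 584 and 579 CPM in control cells (0.24, adjusted p = 4.61e-05), and without 3D-EV library 3 there were 5 falls.

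Among immediate early and growth factor feedback genes more fell than rose. Of 31 tested, 1 rose, 11 fell and 19 did not pass, with a median log2 fold change of -0.287 (1, 10 and 20 with a median of -0.222 in TGF-beta1 cells). Zfp36, whose product destabilises cytokine messages, had 119, 108 and 130 CPM in 3D-EV cells, against 172, 162 and 211 CPM in control cells (-0.61, SE 0.094, adjusted p = 0.000267). Spry2, a brake on receptor kinases, fell by 0.29 (adjusted p = 0.000182). Control library 3 stood out in Fos, with 201, 201 and 294 CPM in 3D-EV cells and 286, 289 and 440 CPM in control cells, and the Fos call (adjusted p = 0.0483) was lost without that library (adjusted p = 0.262), without 3D-EV library 1 or 2 (adjusted p 0.163 and 0.175), with DESeq2 (adjusted p = 0.121) and with the replicate block (adjusted p = 0.05). The falls in the list were 6 without control library 3 and 7 without 3D-EV library 1. Of 25 YAP and mechanical targets 5 rose and 6 fell (5 and 4 in TGF-beta1 cells). Beside Ccn2 and Ankrd1 stood Ccn1, a classic member, with 828 CPM in 3D-EV cells and 803 CPM in control cells, which did not pass (adjusted p = 0.613).

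Outside the lists, the largest rises by log2 fold change were sought among called genes of at least 1 CPM, with no overlap and no placeholder symbol. They were in genes of low level. Ribc2 rose by 2.60, the protease gene Ctsw by 2.58, the epithelial transcription factor Elf5 by 2.29, the potassium channel Kcnh6 by 2.25 and the apoptosis inhibitor Birc7 by 2.17. Nppb, for the natriuretic peptide BNP, had 20.1, 20.5 and 16.6 CPM in 3D-EV cells, against 4.86, 5.78 and 3.64 CPM in control cells, a 4.01-fold rise (adjusted p = 1.63e-07). Among genes of at least 50 CPM, Selp, for the adhesion molecule P-selectin, had 111, 113 and 99.6 CPM in 3D-EV cells, against 33.3, 32.9 and 36.8 CPM in control cells (1.65, adjusted p = 5.16e-10), and Creb3l1, a membrane-bound factor that activates collagen genes, rose by 1.04 (adjusted p = 9.93e-10). Both groups of each gene were well apart.

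By the same rule and apart from Usp4, described below, the largest fall was in Pkhd1l1, a gene related to that of fibrocystin. Its levels were 1.25, 1.03 and 1.37 CPM in 3D-EV cells against 7.79, 8.78 and 8.29 CPM in control cells (-2.77, adjusted p = 6.51e-08). Then came Selenbp1, which oxidises methanethiol (-2.57), the sulfotransferase Sult1a1 (-2.23), the carboxypeptidase Cpz (-2.07), Rnf112 (-1.99), the aldehyde dehydrogenase Aldh3a1 (-1.88) and the clock output factor Hlf (-1.77). Igfbp2, a binding protein of insulin-like growth factors, fell to 120, 117 and 135 CPM in 3D-EV cells against 266, 232 and 257 CPM in control cells (-1.02, adjusted p = 1.4e-07). Sqor, which oxidises sulfide, fell by 0.73 (adjusted p = 5.19e-09) and Deptor, an inhibitor of mTOR, by 0.72 (adjusted p = 1.3e-06).

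The rule also named 2 genes whose libraries disagreed within groups. Usp4, a deubiquitinase, had 3.77, 3.05 and 2.05 CPM in 3D-EV cells, against 5.46, 51.2 and 41.4 CPM in control cells, so that 1 control library sat near the 3D-EV level. The other groups also split, with 3.44, 36.2 and 29.9 CPM in 2D-EV cells and 35.4, 32.1 and 5.30 CPM in TGF-beta1 cells. The Usp4 call (log2 fold change -3.45, adjusted p = 0.0117) was lost with limma-voom (adjusted p = 0.247). Slc39a7, a zinc transporter, had 129, 83.9 and 103 CPM in 3D-EV cells and 77.0, 17.7 and 65.9 CPM in control cells (adjusted p = 0.0473), and was lost with DESeq2 (adjusted p = 0.111), with only the 6 libraries (adjusted p = 0.0927) and without control library 3 or any 1 of the 3D-EV libraries (adjusted p 0.0529 to 0.155). Klf6, of the immediate early list, had 12.1, 12.6 and 14.0 CPM in 3D-EV cells and 60.5, 11.5 and 64.7 CPM in control cells. The Klf6 call (log2 fold change -1.82, adjusted p = 0.00374) was lost with limma-voom (adjusted p = 0.0716). In all, 28 of 9210 genes with a mean of at least 10 CPM spanned 3-fold or more within a group.

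Set directly against TGF-beta1 cells, 3D-EV cells gave no call. With edgeR 0 of 14184 genes passed, 1027 had an unadjusted p below 0.05, and the smallest adjusted p was 0.405. The limma-voom fit gave 0, and DESeq2 gave 12, of which 6 were higher and 6 lower in 3D-EV cells. DESeq2 adjusted over only 3952 genes here, while edgeR and limma-voom adjusted over 14184, so these counts are not on the same footing. The higher ones that DESeq2 named were Csf1, B2m, Crls1, Ctsl, Tspan4 and Icam1, and the lower ones included the kinase gene Src, Chd3, the adaptor Shc1, Dock5 and Specc1, these named genes with log2 differences between 0.121 and 0.199 in size. Without 3D-EV library 3 edgeR called 2 genes, both higher in 3D-EV cells, Cxcl1 (0.875, adjusted p = 0.0231) and C3 (1.54, adjusted p = 0.0442), and without TGF-beta1 library 2 it called Glyr1. Missing the threshold does not show that levels were alike, and the 95% interval of the log2 difference had a median half-width of 0.137 for genes of 10 to 100 CPM and 0.0807 above 100 CPM, but 1.07 under 1 CPM.

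For the fibrosis genes, the log2 difference of 3D-EV minus TGF-beta1 cells was -0.04 for Acta2 (95% interval -0.107 to 0.0307), 0.0019 for Tagln (-0.0766 to 0.0804) and 0.0043 for Ccn2 (-0.0498 to 0.0585). It was 0.055 for Col1a1 (-0.141 to 0.25), 0.085 for Fn1 (-0.0316 to 0.201), 0.080 for Col3a1 (-0.157 to 0.317) and 0.013 for Tgfb1 (-0.0863 to 0.112). Against control cells the same genes differed by 0.52 to 1.06 on the log2 scale or, for Col3a1, by -1.33. Of the panel of 20 genes, 19 were tested: 11 rose, 4 fell and 4 did not pass against control cells, and 0 passed against TGF-beta1 cells. The intervals that left out 0 were those of Smad7 (-0.15, -0.245 to -0.0556, adjusted p = 0.526), Lcn2 (above), Mki67 (-0.10, -0.179 to -0.0208, adjusted p = 0.601) and Krt8 (-0.069, -0.131 to -0.0079, adjusted p = 0.643), none of which holds after adjustment. Of these, Smad7, Lcn2 and Krt8 lay on the side of control cells, while Mki67 lay further from them.

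**Figure D4:**
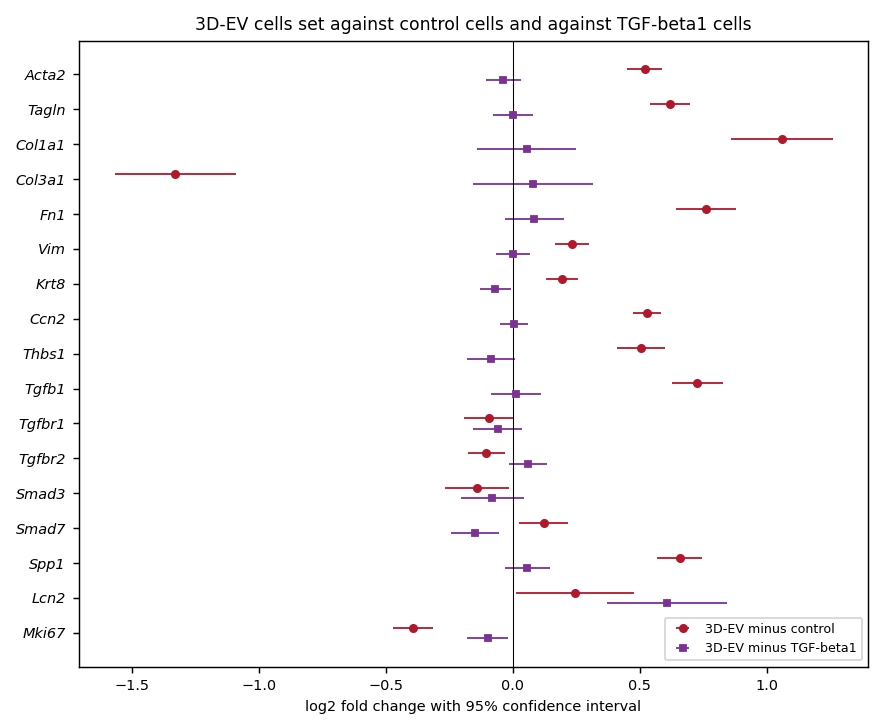
Log2 fold changes (x axis) with 95% confidence intervals for 17 genes: red circles are 3D-EV over control cells and purple squares are 3D-EV over TGF-beta1 cells. Havcr1 was not tested and Cdh1, near the detection floor, is left out. Most purple intervals span 0, whereas the red ones of Col1a1, Fn1, Tgfb1 and Col3a1 lie well away from it.

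Across the lists, the same direct difference was small. The median log2 difference of 3D-EV minus TGF-beta1 cells was 0.0025 for extracellular matrix, -0.01 for mesenchymal and contractile genes and -0.0355 for cell cycle genes, beside -0.00022 for all genes tested. It was 0.14 for inflammation and NF-kB, 0.0802 for lysosome and endocytosis and 0.0902 for interferon and MHC class I. In the NF-kB list 9 of 24 genes were higher and 0 lower at an unadjusted p below 0.05, and in the lysosomal list 12 of 31 were higher and 0 lower, beside 516 higher and 511 lower of all 14184 genes. The smallest adjusted p in these 2 lists was 0.405 and 0.503, so no member was called. Members of a list are measured in the same libraries and are not independent.

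**Figure D5:**
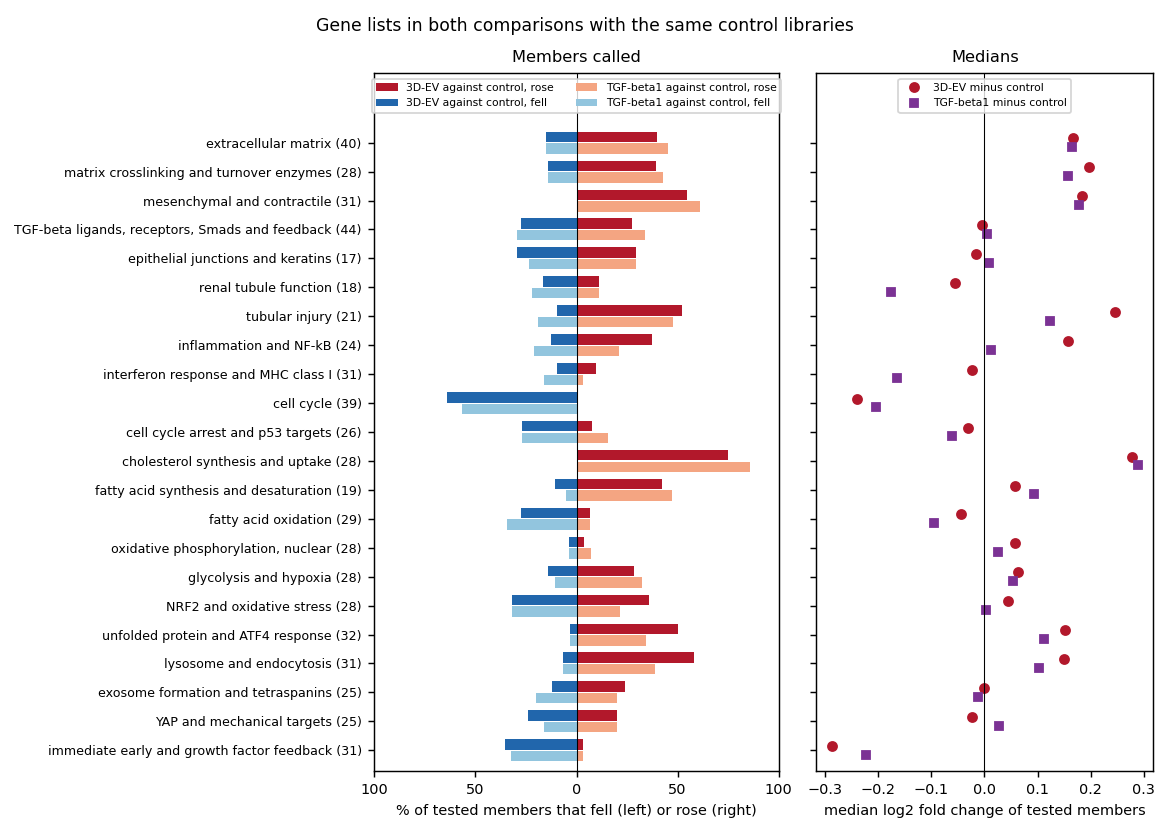
For each list (number of tested members in brackets), the left panel gives the percentage of members that fell or rose, for 3D-EV against control cells in the upper, darker bars and TGF-beta1 against control cells in the lower, lighter bars. The right panel gives the median log2 fold change. The comparisons share control libraries. Medians of the cholesterol, mesenchymal and cell cycle lists lie close together in both. Those of the inflammation, injury and lysosome lists lie further right for 3D-EV cells, as do others, among them interferon (-0.0234 against -0.164) and renal tubule function (-0.0545 against -0.175).

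Set against 2D-EV cells, 3D-EV cells differed in 1 called gene, Ccn2 (0.00705% of genes tested), whose promoter is given above. It had 4070, 4140 and 4010 CPM in 3D-EV cells, against 3390, 3440 and 3530 CPM in 2D-EV cells. Every 3D-EV library was above every 2D-EV library, and 11.4% of all genes had such groups in either direction (log2 difference 0.24, 95% interval 0.185 to 0.293, adjusted p = 0.00189), and the call held when each of the 6 libraries was left out in turn. DESeq2, which adjusted over only 2831 genes here against 14184 with edgeR, called 23 genes, 21 of them higher in 3D-EV cells. Among the higher ones were Acta2, Tagln, Cald1, Edn1 and Thbs1, all of them also raised against control cells. Acta2 had 826, 837 and 853 CPM in 3D-EV cells, against 709, 731 and 730 CPM in 2D-EV cells (log2 difference 0.21, edgeR adjusted p = 0.0698, limma-voom adjusted p = 0.0364). Among genes of at least 10 CPM that were higher, Olr1, an oxidised lipoprotein receptor, had a difference of 0.38 (95% interval 0.232 to 0.536, adjusted p = 0.159). With the filter on low counts edgeR called 0 genes lower in 3D-EV cells, without it Rnf112 was lower (-1.07, adjusted p = 0.0338), and DESeq2 called Tkt and Celsr2 lower. For Ccn2, 3D-EV cells thus stood further from control cells than 2D-EV cells did.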

How the data were processed

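RNA of NRK-52E cells was sequenced in 12 libraries (4 groups, 3 libraries each). The authors deposited raw whole-number counts of each gene, and the submitters' processing notes list build mRatBN7.2 and, as tools, DESeq2, StringTie, HISAT2 and fastp. No tool version, counting setting, strand handling or annotation release is stated in the sources used here, so reads of overlapping or antisense genes and of close paralogs may be shared. The 12 tables per library equalled the joint table, and 0 columns were unused. A count of 1 occurs 1514 times and a count of 2 occurs 5687 times, so the lowest values are not plain tallies of single reads. Of 24660 names, 16794 were found among 47357 rat genes of RefSeq (GRCr8), 3258 were Ensembl identifiers and 1631 were assembled transcripts, of which 998 were tested.

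The analysis used edgeR 4.0.16 in R 4.3.3: filterByExpr (minimum count 10) kept 14184 genes, 5394 were at 0 in all libraries, TMM factors were 0.983 to 1.03, and all 12 libraries entered 1 quasi-likelihood fit of group means with Benjamini-Hochberg adjustment (threshold 0.05). Library totals were 32888125 to 39754319. Pairs of libraries within a group differed by 6.82 to 10.9 times the counting variance, beyond counting error. Same-numbered libraries of 3D-EV and control cells had residual correlations of -0.073 to 0.0259, 0 of 3 above 0.1, and were not treated as pairs. The labels name no batch, and every library was kept. The alternatives were DESeq2 1.42.0, DESeq2 size factors, limma-voom 3.58.1, no filter, only the 6 libraries compared, a replicate block and leaving out each library. The fit was also run on counts simulated from the levels and the spread estimated here. Such a run cannot show whether those estimates suit these libraries.

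The genes and lists were chosen with earlier results of these data known. Named genes were the 8 largest rises and 8 largest falls (adjusted p below 0.05, at least 1 CPM, no overlap, no placeholder symbol), the next 6 of each of at least 50 CPM, the panel of 20 genes, up to 4 members of each list with the smallest p, and 3 genes each way in the comparisons with TGF-beta1 and 2D-EV cells (at least 10 CPM). Some names low in a ranking are not given, and a few genes that enter the counts are not reported here. Further list members, such as C3, Cxcl1, Ccl2, Snai1, Klf6, Fos, Foxm1, Cdkn1a, Srebf2 and Ccn1, were named after their values were seen. The response lists hold 701 distinct genes, 15 of them in more than 1 response list. Cell type marker lists are not in that count, and some of their genes, such as Krt8 and Cd14, are also in a response list.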

Additional observations from a re-analysis of the deposited data

How the results depend on the processing

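The count of genes called in 3D-EV against control cells stayed within 1.5 times of 3262 in every alternative run: 3260 with DESeq2 size factors, 3303 with DESeq2, 3286 with limma-voom, 3113 without the filter, 3115 with only the 6 libraries, and 2408 to 2679 when a library was left out (2419 to 2555 of 3124 for TGF-beta1 against control cells). With the replicate block it was 2957 (1590 higher, 1367 lower). The samples share only a number: over all groups 18 same-numbered pairs correlated by -0.108 to 0.112, and 4 of 12 libraries were most like a library of the same number. Against TGF-beta1 cells the count was 0 except for 12 with DESeq2 (6 higher, 6 lower) and 0 to 2 when a library was left out, all higher. Against 2D-EV cells the 1 call became 23 with DESeq2 (21 higher, 2 lower), 8 without the filter (7 higher, 1 lower), 2, all higher, with limma-voom, with only the 6 libraries and with the replicate block, and 1 to 3, all higher, when a library was left out. Of 158 named genes tested against control cells, 26 crossed the threshold in at least 1 of 12 alternatives and 0 reversed. Of 58 list counts 22 moved by over 1.5 times in some alternative. The causes were not tested. Depth limits genes under 1 CPM.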

Other observations

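A pair of further lists was drawn up after values had been seen and is described without a test. Of 29 tested genes of drug and aldehyde metabolism, 4 were called higher and 12 lower in 3D-EV cells than in control cells, with a median log2 fold change of -0.217 beside -0.0047 for all genes; TGF-beta1 cells against the same control libraries gave 4 and 12 with a median of -0.31. Beside Aldh3a1, Sult1a1, Selenbp1, Sqor and Ephx1, the lower members included Mgst1, a microsomal glutathione transferase, at 16.9, 18.2 and 19.3 CPM in 3D-EV cells against 33.6, 29.2 and 33.7 CPM in control cells (log2 fold change -0.83). The sulfurtransferase Tst had 3.34, 2.76 and 2.98 CPM in 3D-EV cells against 9.72, 9.13 and 9.35 CPM in control cells (-1.63). In both genes the groups were fully apart. The cytochrome gene Cyp2s1 went the other way, with 31.3, 32.9 and 33.3 CPM in 3D-EV cells and 17.3, 14.7 and 18.1 CPM in control cells (0.96).

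Of 16 tested genes of the circadian clock, 1 was called higher (Bhlhe40, a repressor of the clock, log2 fold change 0.22) and 3 lower (Dbp, Cry2 and Hlf) in 3D-EV cells than in control cells, and TGF-beta1 cells gave 2 and 4. Of all genes tested 23.0% were called in 3D-EV cells, so this share is near the background. Dbp, a clock output factor, had 21.4, 22.7 and 23.7 CPM in 3D-EV cells, 18.2, 18.2 and 21.6 CPM in TGF-beta1 cells and 28.6, 29.9 and 28.6 CPM in control cells. Hour of harvest is not given in the sources used here, and its part in these levels was not tested.

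In some genes the libraries of a group fell on a high and a low level. Foxm1 had 0.0764, 13.8 and 13.3 CPM in 3D-EV cells, 15.4, 13.8 and 0 CPM in 2D-EV cells, 0.0288, 14.8 and 16.0 CPM in TGF-beta1 cells and 17.3, 19.1 and 16.5 CPM in control cells. Hsd17b8, an enzyme of mitochondrial fatty acid synthesis, had 10.6, 54.1 and 41.0 CPM in 3D-EV cells, 67.4, 62.3 and 45.2 CPM in 2D-EV cells, 15.5, 10.9 and 8.55 CPM in TGF-beta1 cells and 54.3, 97.6 and 45.2 CPM in control cells. Foxm1 was low in 1 library of each treated group and in 0 of the control libraries. Hsd17b8 was low in all 3 TGF-beta1 libraries (log2 fold change -2.5 over control cells, edgeR adjusted p = 0.00081) and in 1 of 3 3D-EV libraries, and did not pass in 3D-EV against control cells (adjusted p = 0.133; 0.0488 without 3D-EV library 2). How reads were assigned to gene names in each library was not tested.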
